A study of Homo sapiens with 6 samples.

Results

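Replication-dependent histone genes encode the canonical histones H1, H2A, H2B, H3 and H4. They were taken as the rows of the count table whose Ensembl gene IDs carry the protein-coding symbols H1-1 to H1-5 or symbols beginning H2AC, H2BC, H3C or H4C. The table held 69 such genes among 61487 gene IDs: 5 of H1, 17 of H2A, 19 of H2B, 13 of H3 and 15 of H4. Of these, 63 had any count, 6 had none, and 35 had at least 10 counts in a group, summed over its 2 libraries.

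The libraries were made from H2170, an established human lung squamous cell carcinoma line, with 2 libraries in each of 3 groups. The WT group expressed wild-type ACK1 fused to GFP, the IDRmut group expressed ACK1 with the change called IDRmut fused to GFP, and the Control group expressed GFP alone. ACK1 is the tyrosine kinase that the gene TNK2 encodes, and the labels do not spell out which residues IDRmut alters. The series asks how condensates formed by ACK1 affect gene regulation, and RNA was captured on poly-T beads before sequencing. The labels do not say that the 2 libraries of a group were grown apart, so a p-value here measures the spread between these libraries, which may be technical.

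Canonical histones wrap newly copied DNA, and their genes are transcribed mainly in S phase. Their mRNAs usually end without a poly-A tail, just after a short stem-loop that the stem-loop binding protein SLBP recognises and that the U7 small nuclear ribonucleoprotein helps to cut. Some histone genes also give longer, polyadenylated and at times spliced transcripts, which have been described in differentiated cells. Poly-T capture retains that second kind of transcript and largely loses the first, so the levels below are those of histone RNA that a poly-T library can hold.

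The stem-loop is shown first because it divides the histone transcripts that end at it from those that run past it. A search of the GENCODE release 29 transcripts on GRCh38 for the 16-base consensus of the histone stem-loop, with pairing of its 6-base arms and G-U pairs allowed, found it in 29 of the 65 histone genes that this release holds, 44.6%. The same pattern was found in 111 of 19857 other protein-coding genes, 0.559%. Most of the other histone transcripts of this release were annotated over their coding part only, so a missing match says little about the gene. In the 16-base sequences below, given 5′ to 3′ in DNA letters, the capitals mark the arms of the stem and the lower case marks the loop between them.
H2AC6 (chr6:26124669-26124684, + strand): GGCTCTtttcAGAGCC
H2BC5 (chr6:26158587-26158602, + strand): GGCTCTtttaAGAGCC
H3C6 (chr6:26225596-26225611, + strand): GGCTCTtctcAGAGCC
H4C8 (chr6:26285131-26285146, - strand): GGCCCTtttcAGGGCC
H4C14 (chr1:149833032-149833047, + strand): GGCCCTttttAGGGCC
H2AC11 (chr6:27133515-27133530, + strand): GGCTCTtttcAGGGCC
The H2AC6 sequence was shared by 15 of the 29 genes, all of the H2A, H2B and H3 classes. The H4C8 sequence was shared by 5 genes and the H4C14 sequence by 3, all of them H4 genes. The H2BC5 sequence was shared by H2BC4, H2BC5, H2BC7 and H3C8, while H3C6 and H2AC11 each had a sequence of their own.

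Of the 29 genes, 23 had an annotated transcript running more than 100 bases past the stem-loop, and 16 of these 23 reached 10 counts in a group. Their total over the 6 libraries had a median of 143 counts, from 34 for H2BC18 to 1350 for H2AC6. The run was counted only in transcripts that hold the stem-loop. Counts were not divided by exon length, and a longer gene collects more reads at the same level. The exons of H2BC15 cover 5477 bases in GENCODE 29, for example, and those of H2BC12 cover 381. The part of exon length in these counts was not tested. Among the 6 genes where these stopped within 100 bases of it, 3 reached 10 counts in a group, namely H2AC8, H2AC13 and H2BC5. H2BC5 also had a spliced annotated transcript and a poly-A signal near a transcript end. Its annotated gene ended at 26171349, far past its stem-loop at 26158587 to 26158602. Of the 36 genes with no stem-loop in their annotated transcripts, 12 reached it. H2BC12 with 1171 counts and H1-2 with 1095 counts held most of the reads of those 36, and both are annotated here over little more than their coding sequence. The 4 genes that GENCODE 29 does not hold, H2AC18, H2AC19, H3C2 and H3C3, all reached 10 counts. The authors' annotation release is not given in the sources used here, so the extents above are those of GENCODE 29, not of the authors' gene models.

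**Figure D1:**
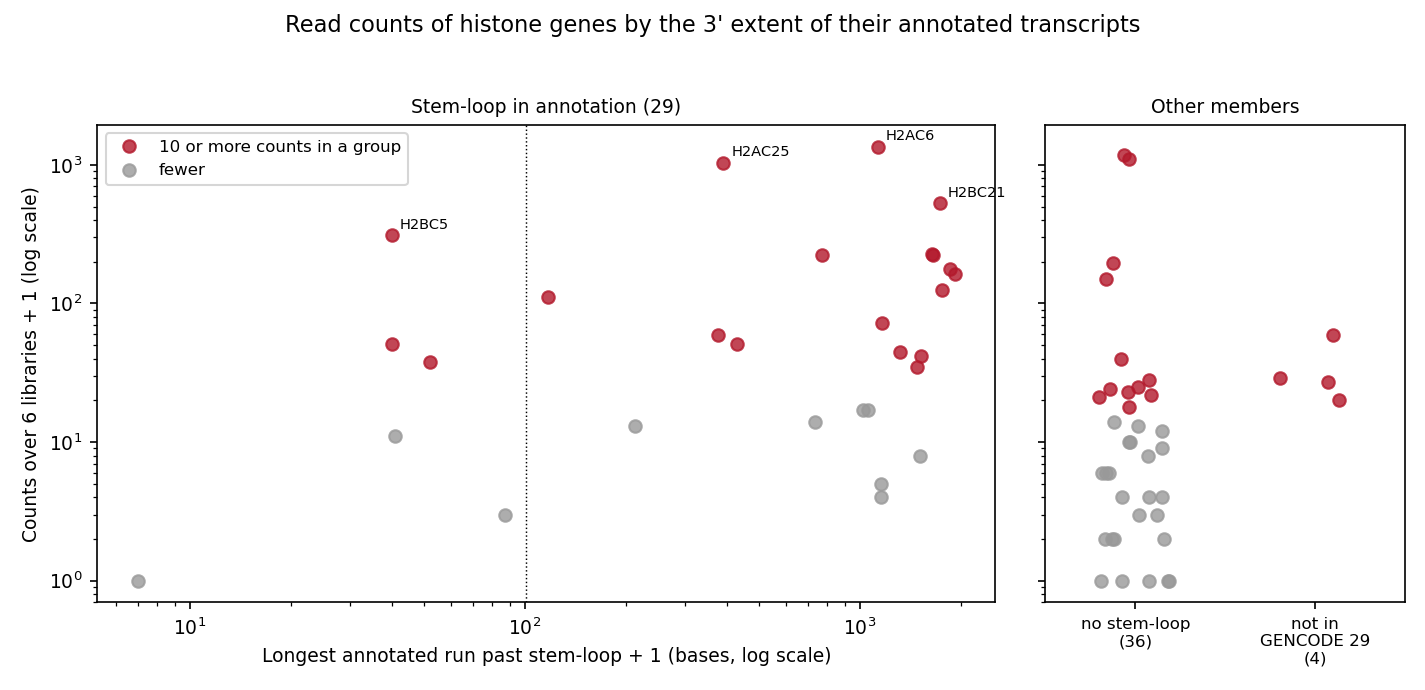
Total counts over 6 libraries plus 1 (log scale) of each of the 69 histone genes, against the longest annotated run past the stem-loop plus 1 in bases (log scale) on the left, and for genes without an annotated stem-loop or outside GENCODE 29 on the right. Red points are genes with at least 10 counts in a group, grey points the rest, and the dotted line marks 100 bases. To its right, 16 of the 23 genes are red, with H2AC6 highest at 1350 counts. Runs were counted only in transcripts that hold the stem-loop, and counts were not divided by exon length.

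The 250 bases before the RefSeq start site (GRCh38.p14) are shown for 3 genes whose levels were higher in both ACK1 groups than in Control. H4C8, also higher in both ACK1 groups, is not printed, and its window held none of the elements named below. Capitals mark the promoter elements that were searched on both strands in the window from 250 bases before to 50 after the start: the TATA box TATAAA, the CCAAT box, the octamer ATTTGCAT, and the H1 box AAACACA.
H2AC6 (chr6:26123922-26124171, + strand): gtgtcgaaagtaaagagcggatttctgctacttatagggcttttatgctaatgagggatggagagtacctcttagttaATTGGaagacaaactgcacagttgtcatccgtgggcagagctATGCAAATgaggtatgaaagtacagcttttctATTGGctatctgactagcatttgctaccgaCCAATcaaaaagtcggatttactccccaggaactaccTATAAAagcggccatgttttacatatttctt
H2BC5 (chr6:26157871-26158120, + strand): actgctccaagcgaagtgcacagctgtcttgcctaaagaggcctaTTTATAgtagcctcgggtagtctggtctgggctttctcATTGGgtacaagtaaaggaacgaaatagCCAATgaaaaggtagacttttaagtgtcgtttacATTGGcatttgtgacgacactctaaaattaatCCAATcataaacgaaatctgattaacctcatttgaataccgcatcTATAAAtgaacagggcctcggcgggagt
H1-2 (chr6:26056471-26056720, - strand): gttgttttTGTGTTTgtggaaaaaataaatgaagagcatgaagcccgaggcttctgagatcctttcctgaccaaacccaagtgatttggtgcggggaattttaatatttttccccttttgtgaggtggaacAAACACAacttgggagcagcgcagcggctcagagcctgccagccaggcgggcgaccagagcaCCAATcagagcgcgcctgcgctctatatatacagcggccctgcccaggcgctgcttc
RefSeq promoters were matched for 63 of the 69 histone genes, which gave 67 entries. The TATA box was present in 67.2% of these entries, against 11.5% of all 35116 promoters of the table. CCAAT was present in 85.1% of the entries, against 34.6% of all promoters, and in every H1, H2A, H2B and H3 entry but in 3 of the 13 H4 entries. The octamer, to which the transcription factor OCT1 binds, was found in 40.3% of the histone entries, against 1.77% of all promoters, with 15 of 20 H2B entries and 11 of 16 H2A entries holding it. The H1 box was present in all 5 H1 entries, with 11.9% of all histone entries against 5.64% of all promoters. The E2F site was present in 22.4% of the histone entries, against 3.19% of all promoters. For the interferon element the shares were 7.46% and 3.57%. The windows of some back-to-back H2A and H2B genes overlap, as for H2AC6 and H2BC4, so a match there can count for both. The entries are therefore not all separate promoters. These matches are letters in a window, and binding was not measured.

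TNK2, read as a check of the labels, measured 3510 and 3610 CPM (counts per 1000000 of the scaled library total) in WT, 1760 and 1460 CPM in IDRmut, and 41.1 and 43.1 CPM in Control. The WT libraries thus held more TNK2 RNA than the IDRmut libraries, and transgene and endogenous reads could not be separated, so the form of ACK1 and its amount cannot be told apart in the WT against IDRmut comparison. Library totals lay between 19128111 and 33540998 counts, with the second WT library the deepest. Among markers of the line, the summed CPM of 8 squamous and epithelial genes was 963 to 989 in WT, 1410 to 1540 in IDRmut and 1840 to 1850 in Control, with KRT14, SOX2 and TP63 present and EPCAM near 0. Most of that sum was KRT14: without it, a choice made after seeing the data, the sum was 352 and 356 CPM in WT, 544 and 520 CPM in IDRmut, and 432 and 405 CPM in Control. Of the 7 such genes tested, 4 were higher and 3 lower in WT against Control. In IDRmut against Control 5 were higher and 2 lower, and in WT against IDRmut 1 was higher and 6 lower. Over all tested genes, the shares higher and lower were 17.4% and 17.6% in WT against Control. They were 15.6% and 15.9% in IDRmut against Control, and 14.2% and 12.3% in WT against IDRmut. Fibroblast markers (5 genes) summed to 2.66 to 3.13 CPM in WT, 2.6 to 3 CPM in IDRmut and 0.753 to 1.32 CPM in Control. Endothelial markers (4 genes, most of the sum from CDH5) summed to 46.3 to 47.5 CPM in WT, 96.5 to 99.5 CPM in IDRmut and 218 to 224 CPM in Control. Leukocyte markers (5 genes, 2 of them at 0) summed to 0.322 to 0.735 CPM in WT, 0.318 to 0.491 CPM in IDRmut and 0.101 to 0.215 CPM in Control. The part of these marker differences in the histone results was not tested.

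Summed over all 69 genes, histone RNA made up 78.1 and 73.4 CPM in WT, 53.3 and 53.4 CPM in IDRmut, and 40.5 and 43.4 CPM in Control. Both WT libraries lay above both IDRmut libraries, which lay above both Control libraries. The means were 75.7 ± 3.32 CPM in WT, 53.4 ± 0.0828 CPM in IDRmut and 42 ± 2.03 CPM in Control (SD, n = 2 each), so that WT was 1.8 times Control and 1.42 times IDRmut, and IDRmut was 1.27 times Control. Leaving out H2AC6, the gene with the most counts, gave 1.63 for WT over Control, 1.37 for WT over IDRmut and 1.19 for the remaining ratio. In bulk RNA, fewer cells that express a gene and less RNA per cell cannot be told apart. A list of 25 RNAs that normally lack a poly-A tail, of which 3 passed the filter, summed to 6.03 to 7.49 CPM in WT, 5.55 to 6.28 CPM in IDRmut and 7.91 to 10.7 CPM in Control, with 13 of the 25 at 0 in every library. RNU6-1, at 0 and 0 CPM in WT, 0.0491 and 0.091 CPM in IDRmut, and 2.89 and 2.96 CPM in Control, set the order of that sum: without it, a choice made after seeing the data, the sum was 7.49 and 6.03 CPM in WT, 5.5 and 6.18 CPM in IDRmut, and 7.81 and 4.95 CPM in Control, and the groups overlapped. The part of tail-less RNA in the histone sum was not tested.

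The same order of groups was seen in the sum of every histone class. The linker histone H1, which binds DNA between nucleosomes, summed to 9.99 and 9.94 CPM in WT, 8.15 and 8.96 CPM in IDRmut, and 5.88 and 6.56 CPM in Control. The H2A genes summed to 28.7 and 25.7 CPM in WT, 20.5 and 20 CPM in IDRmut, and 14.2 and 15.8 CPM in Control. H2A pairs with H2B in the nucleosome, and the H2B genes summed to 27.3 and 27.9 CPM in WT, 18.9 and 18.3 CPM in IDRmut, and 16 and 16.3 CPM in Control. H3 and H4 form the tetramer at the nucleosome's centre. The H3 genes summed to 5.83 and 5.62 CPM in WT, 3.98 and 3.55 CPM in IDRmut, and 3.14 and 3.07 CPM in Control. The H4 genes summed to 6.27 and 4.24 CPM in WT, 1.87 and 2.68 CPM in IDRmut, and 1.27 and 1.67 CPM in Control. The groups did not overlap in any class, and the WT over Control ratio was 1.6 for H1, 1.81 for H2A, 1.71 for H2B, 1.84 for H3 and 3.58 for H4. The H4 ratio leaned on H4C14 in the first WT library: without that gene it was 2.83. Without H4C14, H4 summed to 3.82 and 3.89 CPM in WT and 1.82 and 2.5 CPM in IDRmut. In Control it summed to 1.17 and 1.56 CPM. H4C8 alone held 2.6 and 2.75 CPM of this in WT and 1.23 and 1.23 CPM in IDRmut. In Control H4C8 held 0.406 and 0.753 CPM. H1-2 held nearly all of the H1 sum, at 9.45 and 9.3 CPM in WT. Class sums without H4C8 or H1-2 were not computed. The H2A ratio leaned on H2AC6, at 15.6 and 14.2 CPM in WT and 4.01 and 5.11 CPM in Control. The 4 tested H2A genes had a median log2 fold change of 0.1 in WT against Control.

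**Figure D2:**
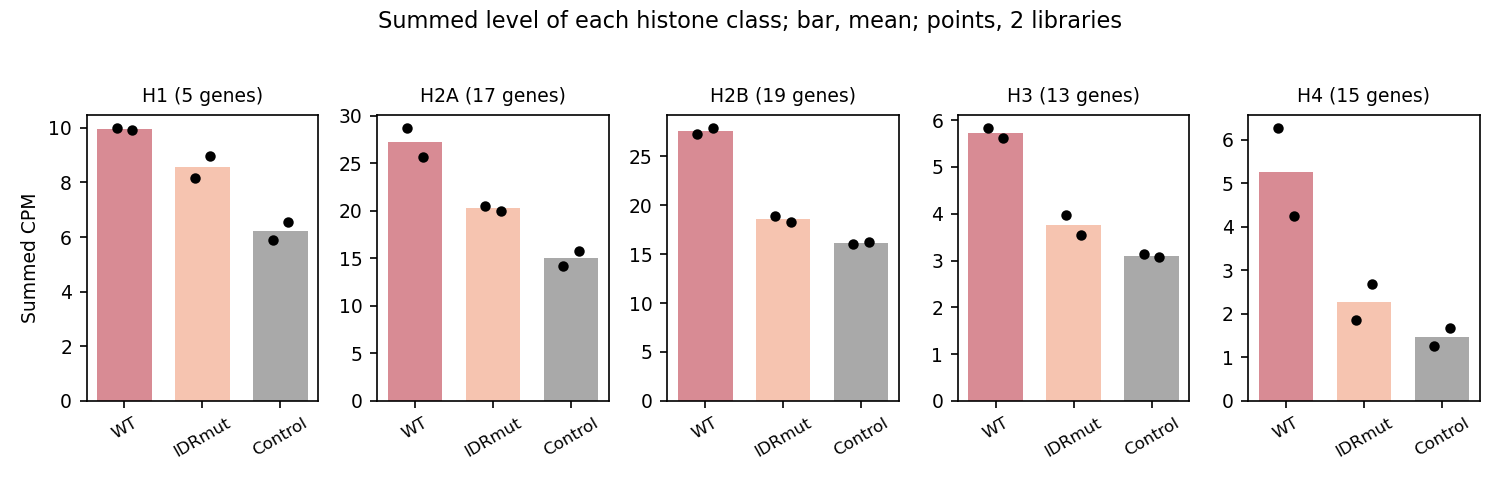
Summed CPM of the genes of each histone class (y axis, linear, a scale of its own in each panel) in WT, IDRmut and Control, with bars for the mean and points for the 2 libraries. WT is highest and Control lowest in every panel, for example 28.7 and 25.7 CPM in WT against 14.2 and 15.8 CPM in Control for H2A, and the WT libraries of H4 lie at 6.27 and 4.24 CPM.

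Gene by gene, 16 members could be tested with edgeR's quasi-likelihood test over 16591 genes, and the other 53 fell below the filter on low counts. A gene that passes such a filter may do so through the group in which it is high, so the counts below describe the 16 and not all 69. In WT against Control, 10 of the 16 were higher and 0 lower at an adjusted p under 0.05, where 17.4% of all tested genes were higher, 17.6% lower and 35% called in either direction; 11 of the 16 had an unadjusted p under 0.05, and DESeq2 called 8 higher and 0 lower, without H2BC15 and H3C10. The median log2 fold change of the 16 was 0.84, against 0 over all genes, with a range of -0.36 to 2.21. Both WT libraries were above both Control libraries for 13 of the 16, where 34.6% of all tested genes were so and 34.7% had the opposite arrangement, which 0 of the 16 had. In IDRmut against Control, 5 of the 16 were higher and 1 was lower, where 15.6% of all tested genes were higher, 15.9% lower and 31.6% called in either direction; DESeq2 called 3 higher and 0 lower. Their median log2 fold change was 0.31, from -0.92 to 1.33, and 10 of the 16 had both IDRmut libraries above both Control libraries, where 32% of all genes did; for 2 both lay below, where 31.3% of all genes did. In WT against IDRmut, 9 of the 16 were higher and 0 lower by edgeR. Over all tested genes, 14.2% were higher, 12.3% lower and 26.5% called in either direction. DESeq2 called 1 of the 16 higher and 0 lower, and 2534 genes in all. Of the genes that edgeR called, it gave no adjusted p to H2BC11, H2BC26, H2BC4, H3C6 and H4C8. It did not call H2BC5, H2BC9 and H2BC12. The median log2 fold change of the 16 was 0.66, from 0 to 1.13. Both WT libraries were above both IDRmut libraries for 13 of the 16, where 31.4% of all genes were so and 30.1% were arranged the other way. The WT against Control and IDRmut against Control comparisons share their Control libraries.

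**Figure D3:**
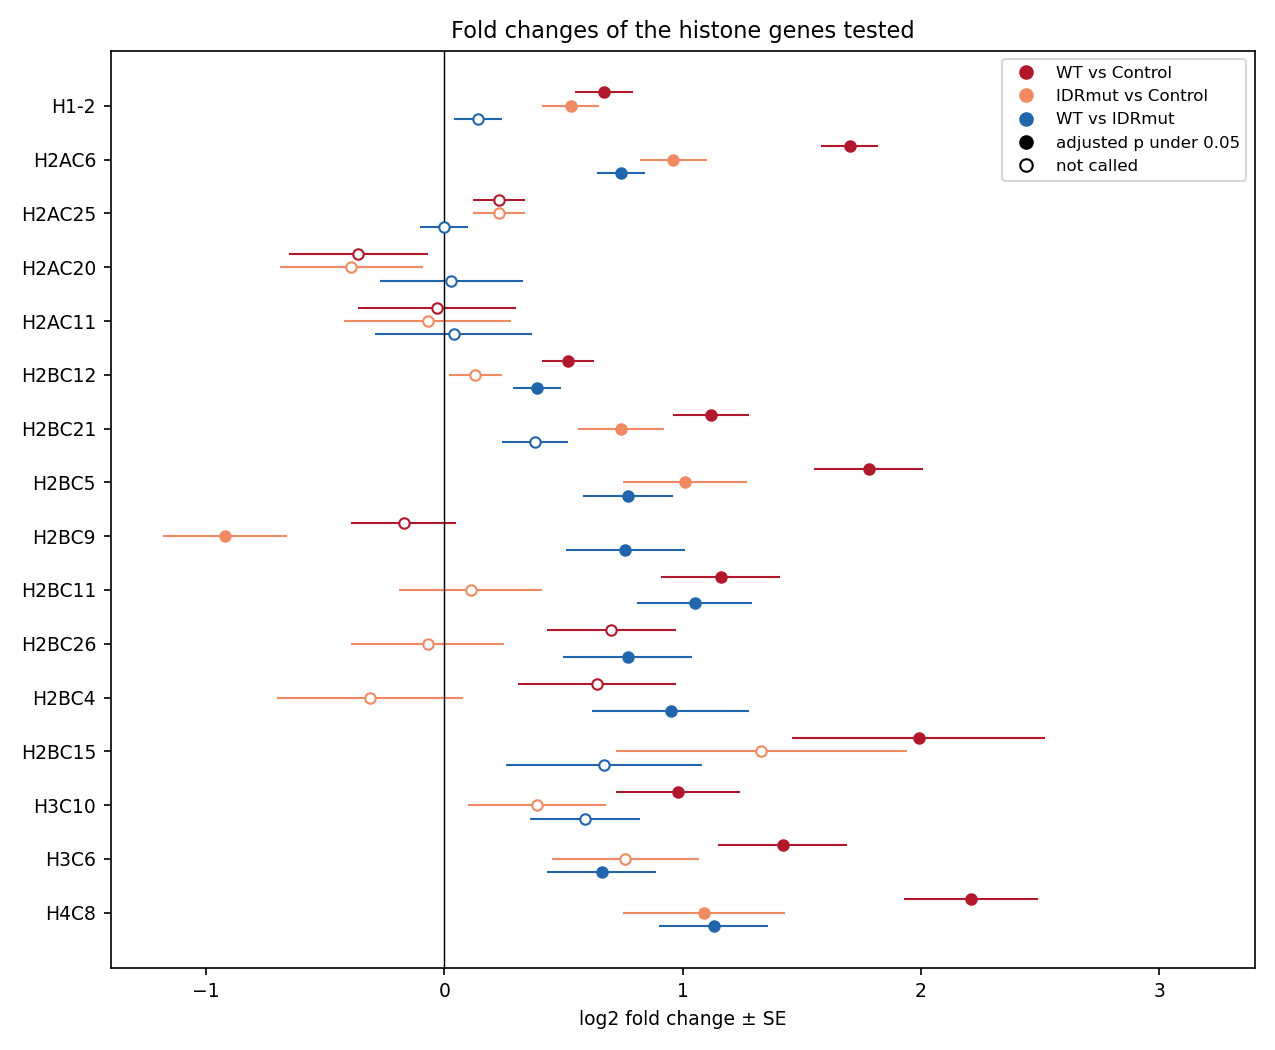
Log2 fold change with its standard error (x axis) of each of the 16 tested histone genes in WT vs Control (dark red), IDRmut vs Control (orange) and WT vs IDRmut (blue), with filled points for an adjusted p under 0.05. H4C8 at 2.21 and H2BC15 at 1.99 lie furthest right in WT vs Control, and H2BC9 at -0.92 is the filled point left of 0 in IDRmut vs Control.

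H1-2 (ENSG00000187837), the linker histone gene with nearly all H1 reads, measured 9.45 and 9.30 CPM in WT, 8.05 and 8.87 CPM in IDRmut, and 5.48 and 6.29 CPM in Control. Both ACK1 groups lay above Control without overlap, and WT and IDRmut lay close together. H1-2 rose in WT by a log2 fold change of 0.67 ± 0.12 (SE; adjusted p = 2.1e-04, edgeR) and in IDRmut by 0.53 ± 0.12 (adjusted p = 0.003, edgeR), while WT over IDRmut was 0.14 ± 0.10 (adjusted p = 0.35, edgeR). Without the first Control library, the IDRmut over Control value was 0.43 with an adjusted p of 0.058 by edgeR. The other H1 genes were sparse. H1-4 had 14 counts in WT, 2 in IDRmut and 5 in Control, and its depth-adjusted WT over IDRmut ratio was 5.43 with an exact 95% counting interval of 1.25 to 49.2. H1-3 had 8 counts in WT and 0 in IDRmut and Control, at least 2.07-fold higher than IDRmut and at least 1.87-fold higher than Control with a floor of 3 counts set over each of those groups. H1-5 had 11 counts in WT, 2 in IDRmut and 7 in Control, with a WT over IDRmut ratio of 4.27 (0.931 to 39.6). Such intervals and floors cover counting error only, because amplified reads carried no molecular identifiers.

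Among H2A genes, H2AC6 (ENSG00000180573, chr6:26124145-26139116, + strand), which GENCODE 29 gives a spliced transcript reaching 1128 bases past its stem-loop, held the most reads. It measured 15.6 and 14.2 CPM in WT, 9.08 and 8.60 CPM in IDRmut, and 4.01 and 5.11 CPM in Control. The 3 groups did not overlap, with WT highest and Control lowest. H2AC6 rose by a log2 fold change of 1.70 ± 0.12 in WT against Control (adjusted p = 6.6e-09, edgeR), by 0.96 ± 0.14 in IDRmut against Control (adjusted p = 3.5e-05, edgeR) and by 0.74 ± 0.10 in WT against IDRmut (adjusted p = 3.9e-05, edgeR). It was called in each of the 15 other settings tried for every comparison. The other 3 H2A genes tested did not pass the test in any comparison. H2AC25, from the small histone cluster further along chromosome 1, measured 8.08 and 7.96 CPM in WT, 8.15 and 7.87 CPM in IDRmut, and 6.54 and 7.10 CPM in Control. Its log2 fold change was 0.23 ± 0.11 against Control both in WT (adjusted p = 0.12, edgeR) and in IDRmut (adjusted p = 0.14, edgeR), and it did not pass the test. H2AC20 measured 1.32 and 0.848 CPM in WT, 1.08 and 0.955 CPM in IDRmut, and 1.27 and 1.40 CPM in Control, and its WT libraries overlapped Control while its IDRmut libraries lay below it. H2AC11 measured 1.18 and 0.76 CPM in WT, 0.736 and 1.05 CPM in IDRmut, and 1.07 and 0.807 CPM in Control, with all 3 groups overlapping.

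H2B had the most tested genes, 8 of the 16. H2BC5 (ENSG00000158373) measured 3.18 and 3.60 CPM in WT, 1.87 and 2.14 CPM in IDRmut, and 1.17 and 0.807 CPM in Control. It stood in the same order as H2AC6, with no overlap between groups. It rose by a log2 fold change of 1.78 ± 0.23 in WT against Control (adjusted p = 1e-05, edgeR), 1.01 ± 0.26 in IDRmut against Control (adjusted p = 0.0071, edgeR) and 0.77 ± 0.19 in WT against IDRmut (adjusted p = 0.0062, edgeR). H2BC21 measured 5.00 and 5.09 CPM in WT, 4.07 and 3.68 CPM in IDRmut, and 2.54 and 2.10 CPM in Control. Its groups did not overlap either, and its log2 fold change was 1.12 ± 0.16 in WT against Control (adjusted p = 3.7e-05, edgeR), 0.74 ± 0.18 in IDRmut against Control (adjusted p = 0.0041, edgeR) and 0.38 ± 0.14 in WT against IDRmut (adjusted p = 0.057, edgeR). Without the second Control library, the IDRmut against Control values were 0.78 for H2BC5 (adjusted p = 0.087, edgeR) and 0.61 for H2BC21 (adjusted p = 0.054, edgeR), and without the second WT library H2BC5 in WT against IDRmut was 0.66 and not called. DESeq2 did not call H2BC5 in IDRmut against Control (1.02, adjusted p = 0.056) or in WT against IDRmut (0.76, adjusted p = 0.11).

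For 4 more H2B genes, WT exceeded IDRmut without a call in IDRmut against Control. H2BC12 (ENSG00000197903) measured 10.7 and 10.0 CPM in WT, 7.95 and 7.82 CPM in IDRmut, and 7.46 and 6.94 CPM in Control. WT was above IDRmut by 0.39 ± 0.10 on the log2 scale (adjusted p = 0.0091, edgeR) and above Control by 0.52 ± 0.11 (adjusted p = 9.8e-04, edgeR), while IDRmut against Control was 0.13 ± 0.11 (adjusted p = 0.43, edgeR). H2BC11 measured 2.11 and 2.11 CPM in WT, 1.13 and 0.910 CPM in IDRmut, and 0.862 and 1.02 CPM in Control, so that IDRmut and Control overlapped and WT lay above both. Its log2 fold change was 1.16 ± 0.25 in WT against Control (adjusted p = 0.0015, edgeR) and 1.05 ± 0.24 in WT against IDRmut (adjusted p = 0.0032, edgeR). H2BC26 measured 1.57 and 1.58 CPM in WT, 0.736 and 1.09 CPM in IDRmut, and 0.913 and 1.02 CPM in Control. H2BC4 measured 1.13 and 1.08 CPM in WT, 0.687 and 0.455 CPM in IDRmut, and 0.558 and 0.861 CPM in Control. For both, WT lay above IDRmut, by 0.77 ± 0.27 for H2BC26 (adjusted p = 0.041, edgeR) and 0.95 ± 0.33 for H2BC4 (adjusted p = 0.045, edgeR), but both calls ended without the first Control library, with values of 0.77 and 0.95, and on leaving out several of the other libraries. Against Control, WT was at 0.70 ± 0.27 for H2BC26 (adjusted p = 0.054, edgeR) and 0.64 ± 0.33 for H2BC4 (adjusted p = 0.15, edgeR), neither of which passed the test. The H2BC12 call against IDRmut ended without the first WT library, at 0.34 (adjusted p = 0.06, edgeR), and with DESeq2, at 0.39 (adjusted p = 0.1).

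H2BC9 stood apart from the other tested H2B genes, and H2BC15 had the fewest counts among them. H2BC9 measured 1.57 and 2.02 CPM in WT, 1.13 and 1.05 CPM in IDRmut, and 1.88 and 2.26 CPM in Control. WT and Control overlapped and IDRmut lay below both. H2BC9 fell by 0.92 ± 0.26 on the log2 scale in IDRmut against Control (adjusted p = 0.011, edgeR), WT against Control was -0.17 ± 0.22 (adjusted p = 0.61, edgeR), and WT was above IDRmut by 0.76 ± 0.25 (adjusted p = 0.032, edgeR). Without the second Control library the first value was -0.79 (adjusted p = 0.1, edgeR), and the WT against IDRmut call ended without the second WT library, at 0.52, and without the first or second IDRmut library, at 0.81 and 0.70. DESeq2 ended both H2BC9 calls, at -0.93 for IDRmut against Control (adjusted p = 0.11) and 0.74 for WT against IDRmut (adjusted p = 0.23). H2BC15, with 35 counts in WT, 17 in IDRmut and 6 in Control, measured 0.637 and 0.643 CPM in WT, 0.491 and 0.318 CPM in IDRmut, and 0.101 and 0.215 CPM in Control. Its 3 groups did not overlap, and it rose by a log2 fold change of 1.99 ± 0.53 in WT against Control (adjusted p = 0.0068, edgeR). That call ended without the first Control library, at 1.55 (adjusted p = 0.11, edgeR), and without the second WT library, at 1.98 (adjusted p = 0.053, edgeR), and with DESeq2, at 2.03 (adjusted p = 0.097). The exons of H2AC15 lie wholly within those of H2BC15, and with the strand setting of the counting not given, reads of the pair could not be separated.

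Of the H3 genes, H3C6 measured 1.81 and 1.84 CPM in WT, 1.18 and 1.14 CPM in IDRmut, and 0.710 and 0.645 CPM in Control. Its groups did not overlap, and it rose by a log2 fold change of 1.42 ± 0.27 in WT against Control (adjusted p = 5.1e-04, edgeR), with 0.76 ± 0.31 in IDRmut against Control (adjusted p = 0.071, edgeR). WT was above IDRmut by 0.66 ± 0.23 (adjusted p = 0.045, edgeR), a call that ended whichever of the 6 libraries was left out, with values of 0.63 to 0.68. H3C10 measured 2.30 and 2.08 CPM in WT, 1.77 and 1.14 CPM in IDRmut, and 1.07 and 1.13 CPM in Control. WT lay above both other groups, and H3C10 rose by 0.98 ± 0.26 in WT against Control (adjusted p = 0.0063, edgeR), which was 0.93 without the first Control library (adjusted p = 0.062, edgeR) and 0.99 with DESeq2 (adjusted p = 0.077), neither of them called.

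H4C8 (ENSG00000158406, chr6:26277609-26285638, - strand), with an annotated transcript that reaches 1655 bases past the stem-loop, was the H4 gene that could be tested. It measured 2.60 and 2.75 CPM in WT, 1.23 and 1.23 CPM in IDRmut, and 0.406 and 0.753 CPM in Control. No groups overlapped. H4C8 rose by a log2 fold change of 2.21 ± 0.28 in WT against Control (adjusted p = 7.5e-06, edgeR), by 1.09 ± 0.34 in IDRmut against Control (adjusted p = 0.02, edgeR) and by 1.13 ± 0.23 in WT against IDRmut (adjusted p = 0.0013, edgeR). The IDRmut against Control value was 0.70 without the first Control library (adjusted p = 0.23, edgeR) and 1.09 with DESeq2 (adjusted p = 0.12), neither of them called.

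**Figure D4:**
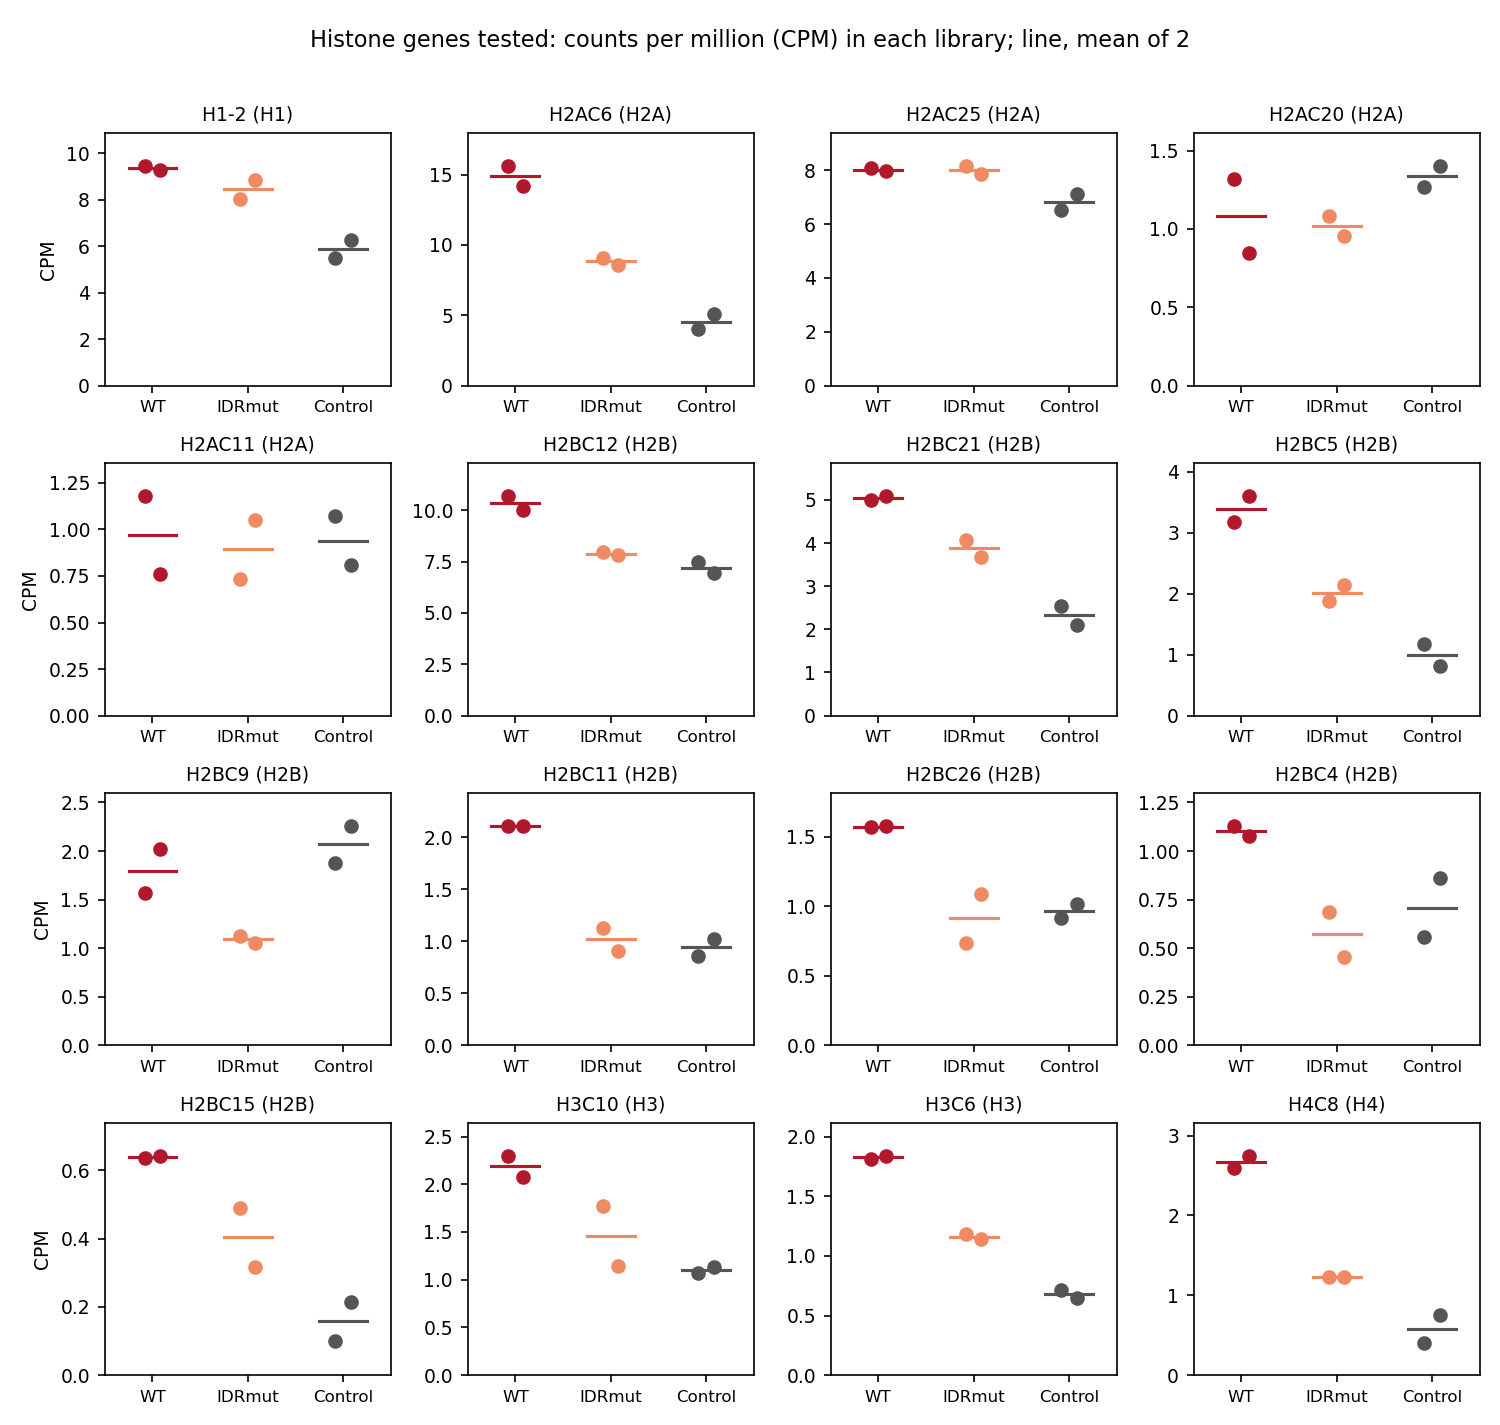
CPM (y axis, linear from 0, a scale of its own in each panel) of the 16 tested histone genes in each library of WT, IDRmut and Control, with a line at the mean of the 2 libraries. H2AC6, H2BC5, H2BC21 and H4C8 are highest in WT and lowest in Control, H2BC11 is higher in WT (2.11 and 2.11 CPM) than in the other groups, and H2BC9 is lowest in IDRmut (1.13 and 1.05 CPM).

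The 53 genes below the filter held few reads, at most 71 counts over the 6 libraries. They summed to 9.85 and 7.58 CPM in WT, 3.98 and 5.14 CPM in IDRmut, and 4.51 and 4.95 CPM in Control. H4C14 made up much of the first WT value: it had 50 and 12 counts in the WT libraries, 1 and 4 in the IDRmut libraries and 2 and 2 in the Control libraries. Its near-identical copy H4C15 had 6 and 11 counts in WT, 5 and 10 in IDRmut, and 2 and 10 in Control, and reads that match both copies may have been dropped or assigned to either. Without H4C14 the other 52 genes summed to 7.4 and 7.22 CPM in WT, 3.93 and 4.96 CPM in IDRmut, and 4.41 and 4.84 CPM in Control, with a WT over Control ratio of 1.58 and an IDRmut over Control ratio of 0.96. H2AC18 had 14 counts in WT, 11 in IDRmut and 1 in Control, a ratio of 9.82 for WT over Control (exact 95% counting interval 1.49 to 415) and 9.95 for IDRmut over Control (1.45 to 428). H3C13 had 11 counts in WT and 1 in Control, a ratio of 7.72 (1.12 to 332). H3C1 had 14 counts in WT, 3 in IDRmut and 7 in Control, with a WT over IDRmut ratio of 3.62 (1.01 to 19.6). H2AC19 had 11 counts in WT and 3 in Control, a ratio of 2.57 (0.68 to 14.4). Such ratios were computed only where the first group had at least 10 counts and the second 1 to 3, so no fall could appear.

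By position, 31 of the histone genes lay on chromosome 6 between 25726132 and 26285638, of which 13 reached 10 counts in a group, and 21 lay between 27125897 and 27893843, of which 10 did. Of 9 genes on chromosome 1 between 149782689 and 149887916, 6 reached it, as did H2AC25 and H2BC26 at 228456979 to 228460470. Many H2A and H2B genes stand back to back and share the DNA between their starts, and 12 such pairs had starts 194 to 248 bases apart. The members of a pair often differed in reads. H2AC6 had 1350 counts over the 6 libraries and its partner H2BC4 had 111, with starts 246 bases apart. H2AC12 had 7 counts and H2BC12 had 1171. H2AC20 did not pass the test in WT against Control, with -0.36 ± 0.29 (adjusted p = 0.36, edgeR), while its partner H2BC21 was at 1.12 ± 0.16. H2AC11 was at -0.03 in WT against Control (adjusted p = 0.96, edgeR), with its partner H2BC11 at 1.16 ± 0.25. The differences between partners were not tested.

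The list of histone genes for which polyadenylated forms had been described in differentiated cells holds H1-2, H2AC6, H2BC4, H2BC5, H2BC12 and H2BC21. All 6 were tested, with 5 higher in WT against Control, 4 higher in IDRmut against Control and 4 higher in WT against IDRmut, and none lower in any of these comparisons, where 17.4%, 15.6% and 14.2% of all tested genes were higher. The median log2 fold changes were 0.9, 0.63 and 0.56, against 0.84, 0.31 and 0.66 over the 16 tested histone genes. The 6 are part of the 16, and the list was drawn up with earlier results of these data known.

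The variants listed as replication-independent histones, most of which are made outside S phase with ordinary poly-A tails, included genes called in both directions. Of 11 tested, 3 were higher and 3 lower in WT against Control, 2 higher and 6 lower in IDRmut against Control, and 6 higher and 0 lower in WT against IDRmut, with median log2 fold changes of -0.01, -0.18 and 0.17. All tested genes were 17.4% higher and 17.6% lower in WT against Control, 15.6% higher and 15.9% lower in IDRmut against Control, and 14.2% higher and 12.3% lower in WT against IDRmut. MACROH2A2, a macro-domain H2A variant linked to repressed chromatin, averaged 12 CPM in WT, 9.20 CPM in IDRmut and 1.49 CPM in Control, with log2 fold changes of 3.00 ± 0.15 in WT (adjusted p = 1.1e-10, edgeR) and 2.62 ± 0.16 in IDRmut against Control (adjusted p = 2.6e-09, edgeR). H2AZ2, an H2A.Z variant found at promoters, was lower than in Control, at -0.47 ± 0.04 in WT and -0.52 ± 0.04 in IDRmut. H2AX, the variant phosphorylated at DNA breaks, was at -0.11 ± 0.05 in WT, which was not called, and -0.33 ± 0.05 in IDRmut, which was. CENPA, the H3 variant of centromeres, was higher in WT than in IDRmut by 0.37 ± 0.05.

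Genes that transcribe and cut histone mRNA included calls in both directions. Of 20 tested, 3 were higher and 8 lower in WT against Control, 2 higher and 8 lower in IDRmut against Control, and 2 higher and 5 lower in WT against IDRmut, with medians of -0.08, -0.09 and -0.01. Over all tested genes the shares were 17.4% higher and 17.6% lower, 15.6% and 15.9%, and 14.2% and 12.3% in the same 3 comparisons. SLBP, which binds the stem-loop, averaged 122 CPM in WT, 137 CPM in IDRmut and 155 CPM in Control, with log2 fold changes of -0.35 ± 0.04 in WT (adjusted p = 6.1e-06, edgeR) and -0.18 ± 0.04 in IDRmut against Control (adjusted p = 0.0047, edgeR). NCBP2, a subunit of the nuclear cap-binding complex, was at -0.22 ± 0.04 in WT and 0.11 ± 0.04 in IDRmut against Control, and the second value was not called. SRRT, which joins the cap-binding complex to RNA processing, was at -0.28 ± 0.04 in WT and -0.13 ± 0.04 in IDRmut. NELFE, a subunit of the negative elongation factor, was higher, by 0.33 ± 0.05 in WT and 0.32 ± 0.05 in IDRmut, as was SYMPK, the scaffold of the cutting complex, by 0.22 ± 0.06 and 0.38 ± 0.06.

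The list of histone RNA decay held enzymes that give the tail-less end uridines and other decay factors. Of its 16 genes, 1 was higher and 2 lower in WT against Control, and 0 higher and 2 lower in IDRmut against Control. In WT against IDRmut, 2 were higher and 0 lower. Among all tested genes, 17.4% were higher and 17.6% lower in the first of these, 15.6% and 15.9% in the second, and 14.2% and 12.3% in the third, for these genes and for the exosome genes that follow. The uridylyl transferase TUT7 was higher in WT, by 0.37 ± 0.07 against Control and 0.30 ± 0.06 against IDRmut. The decapping enzyme DCP2 was at -0.27 ± 0.05 in WT and -0.17 ± 0.05 in IDRmut against Control. The nuclear exosome degrades RNA that runs past its proper end. Its list of 19 genes also held the poly-A polymerases PAPOLA and PAPOLG and the poly-A binding protein PABPN1. Of the 19, 1 was higher and 2 lower in WT against Control, and 3 higher and 4 lower, PAPOLG among them, in IDRmut against Control. In WT against IDRmut, 0 were higher and 5 lower. RBM7, an RNA-binding adaptor of the exosome, was at -0.31 ± 0.05 in WT and -0.15 ± 0.05 in IDRmut against Control, and EXOSC4, a subunit of its core ring, was at 0.41 ± 0.08 in IDRmut against Control.

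Of the histone chaperones and S-phase genes, many were lower in both ACK1 groups than in Control. Of 25 chaperone genes, 0 were higher and 18 lower in WT against Control, and 0 were higher and 15 lower in IDRmut against Control, with 2 higher and 3 lower in WT against IDRmut. The shares lower over all tested genes were 17.6% in WT against Control, 15.9% in IDRmut against Control and 12.3% in WT against IDRmut, and the shares higher were 17.4%, 15.6% and 14.2%. CHAF1B, a subunit of the assembly factor that places H3 and H4 behind the replication fork, was at -0.26 ± 0.06 in WT and -0.51 ± 0.07 in IDRmut. NASP, which holds a soluble store of H3 and H4, was at -0.26 ± 0.04 in WT and -0.10 ± 0.04 in IDRmut. Of 23 genes of S-phase entry, 0 were higher and 17 lower in WT against Control, and 0 were higher and 23 lower in IDRmut against Control, while 13 were higher and 1 lower in WT against IDRmut, beside the same shares over all tested genes. E2F1, a transcription factor of S-phase entry, was at -0.44 ± 0.05 in WT and -0.67 ± 0.05 in IDRmut. RRM2, a subunit of ribonucleotide reductase, was at -0.06 ± 0.03 in WT, which was not called, and -0.49 ± 0.03 in IDRmut. The medians of the 23 were -0.26, -0.37 and 0.14, and the part of this difference in the histone values was not tested.

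**Figure D5:**
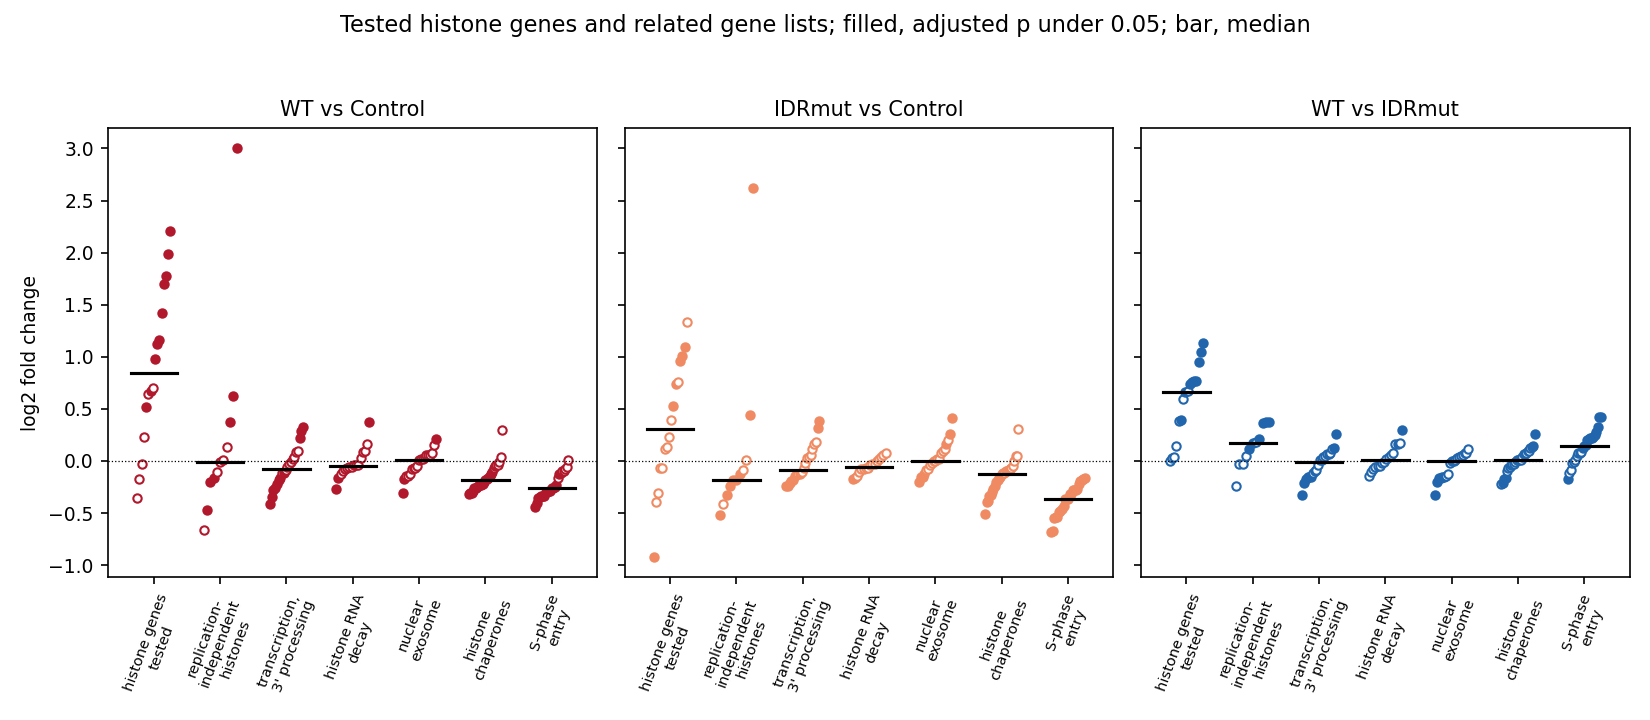
Log2 fold changes (y axis) of the 16 tested histone genes and of the tested genes of 6 related lists (x axis) in WT vs Control, IDRmut vs Control and WT vs IDRmut, with filled points for an adjusted p under 0.05 and a bar at each median. The histone median is 0.84 in WT vs Control, where the S-phase entry median is -0.26 and the chaperone median -0.18, and MACROH2A2 is the high point at 3.00 among the replication-independent histones.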

How the data were processed

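The authors deposited raw counts per gene for 6 libraries. The submitters' processing notes name GRCh38, HISAT2 2.2.1, featureCounts 2.0.1 and SAMtools 1.14. How multi-mapping reads and strand were handled, and with which annotation, is not given in the sources used here. Per the labels' protocols, mRNA was captured on poly-T beads and random hexamers primed the cDNA. From the deposited counts, genes were kept by filterByExpr of edgeR 4.0.16 in R 4.3.3 (minimum count 10, minimum total 15), which left 16591 genes, scaled with TMM and tested with edgeR's quasi-likelihood test on all 6 libraries, with Benjamini-Hochberg adjustment over all genes and a threshold of 0.05. CPM were computed here from the counts and TMM library sizes. SE were the log2 fold change over the square root of F. Class sums and lists have no test. DESeq2 1.42.0 was an alternative, and the code was tested on simulated data. Stem-loops came from GENCODE 29 transcripts and promoters from RefSeq. Members and lists were chosen with earlier results of these data known. Members with at least 10 counts in a group are named or given in ranges where they bear on a result, all tested members have their fold changes, and of each list up to 5 genes with the smallest adjusted p in any comparison were eligible for naming; 1 of these is not reported here. The same-numbered libraries did not deviate together, so no pairing was used.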

Additional observations from a re-analysis of the deposited data

How the results depend on the processing

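No histone gene changed direction with a call under any of the 15 alternatives tried. The 10 histone genes higher in WT against Control were 8 to 13 when each library was left out in turn, with 0 lower, and all genes called were 3974 to 7028. For IDRmut against Control the leave-one-out counts were 3 to 5 higher and 0 to 1 lower, with 3451 to 5522 genes in all, and for WT against IDRmut 5 to 8 higher and 0 lower, with 2590 to 4761 in all. Leaving out a library left the lone library of its group assumed to vary like the others, and changed the number of histone genes tested. These counts can therefore include histone genes not called with all 6 libraries. They do not give how many of the calls made with all 6 libraries held. In WT against IDRmut, some of those calls ended whichever library was left out, with H3C6 among them each time. DESeq2 called 3649 genes in WT against Control, 3290 in IDRmut against Control and 2534 in WT against IDRmut. It called 3 histone genes higher and 0 lower in IDRmut against Control, and 1 higher, H2AC6, in WT against IDRmut. In WT against IDRmut it gave no adjusted p to H2BC11, H2BC26, H2BC4, H3C6 and H4C8, which edgeR called there. The cause of the other lower counts was not tested.

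With the replicate block, histone genes called higher numbered 10, 5 and 6 in the 3 comparisons and all genes 5440, 4836 and 3966; same-numbered libraries correlated at -0.0156, -0.0321 and -0.0442, so the numbers did not pair them.

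Corrections for GC content and transcript length were added after the data were seen, in 2 versions. The first, unweighted and not centred, called 8235 genes in WT against Control, 26.6% of them higher against 49.8% without it, and 7341 in IDRmut against Control, 26.4% against 49.5%; it moved the median of all genes by -0.11 and -0.09 on the log2 scale, and the histone medians to 0.69 and 0.19. The second, weighted and centred, was chosen after the result of the first was known, and called 6847 and 6213 genes, 49.6% and 51.7% of them higher, with histone medians of 0.8 and 0.27. Both kept all 10, 6 and 9 histone calls of the 3 comparisons. Upper-quartile scaling gave 58.6% higher in WT against Control and 58.1% in IDRmut against Control, and kept the same histone calls. Depth limits the 53 genes below the filter, which have no test.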

Other observations

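The table also held histone pseudogenes, which are not among the 69 genes. H2BC20P measured 6.47 and 7.05 CPM in WT, 3.24 and 4.64 CPM in IDRmut, and 4.26 and 3.55 CPM in Control. Its log2 fold change was 0.80 ± 0.16 in WT against Control (adjusted p = 7.5e-04, edgeR) and 0.78 ± 0.15 in WT against IDRmut (adjusted p = 0.0011, edgeR), with 0.02 in IDRmut against Control (adjusted p = 0.96, edgeR). H2BC19P measured 2.11 and 1.52 CPM in WT, 1.18 and 0.819 CPM in IDRmut, and 0.558 and 0.861 CPM in Control, with 1.31 ± 0.31 in WT against Control (adjusted p = 0.0036, edgeR). Reads shared with near-identical H2B genes could not be separated from those of the pseudogenes.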
